A study of Mus musculus with 8 samples.

Results

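The microRNAs (miRNAs) of the miR-99 and miR-100 family and of the miR-125 family were followed in cultured mouse oligodendrocytes, the myelin-forming cells of the central nervous system. The members were mmu-miR-99a, mmu-miR-99b, mmu-miR-100, mmu-miR-125a-5p and mmu-miR-125b-5p, written below without the species prefix. They were taken as all array rows that carry such a name and are not controls. They are 5 of the 611 mouse miRNAs on the array and 5 of the 199 tested, and each has 2 probes printed as 10 spots. Total RNA from 8 cultures was hybridised to Agilent single-colour arrays, 1 culture per array.

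The cultures of day 0 (n = 3) and day 1 (n = 2) are labelled immature, and those of day 6 (n = 3) are labelled mature. The text of the series counts the immature cultures as 1 and 2 days old, and the day numbers of the sample labels are used here. All 8 cultures came from C57BL/6J mice with the genotype CNP-Cre, in which Cre recombinase is placed under Cnp, a gene of the oligodendrocyte lineage, so no culture without Cre serves as a comparison. They were untreated and grew after a shake-off in DMEM with B27, a little horse serum and thyroid hormones. The series text calls the samples independent. The labels do not say if separate animals or litters were used, so the p-values measure the spread between these samples, which may in part be technical.

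A miRNA guides silencing proteins to messenger RNAs that pair with its seed, bases 2 to 8 from the 5′ end. MiR-125 is the vertebrate relative of lin-4, which times larval development in Caenorhabditis elegans. The family of miR-99 and miR-100 is known to repress components of the mTOR growth pathway. In vertebrate genomes the genes of both families lie in clusters with a let-7 gene between them, and let-7 miRNAs are known to rise as neural cells differentiate.

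The mature sequences are shown because the 5 members fall into 2 seed families and because close relatives can bind each other's probes. All 5 names were matched in RefSeq (GRCm38.p6), with names that carry no arm taken as the 5p strand. Capitals mark the seed.
miR-99a: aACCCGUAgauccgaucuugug
miR-99b: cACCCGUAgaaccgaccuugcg
miR-100: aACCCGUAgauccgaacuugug
miR-125a-5p: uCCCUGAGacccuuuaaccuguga
miR-125b-5p: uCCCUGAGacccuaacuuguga
MiR-99a and miR-100 differ at 1 base, U16A, counted from the 5′ end. MiR-99b differs from miR-99a at 4 bases (A1C, U11A, U16C and U21C), all outside the seed. MiR-125a-5p has 24 bases and miR-125b-5p has 22, and they share their first 13 and last 5 bases. How much of each other's signal the probes of such close relatives collect was not tested.

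The members come from 3 clusters of 3 hairpins each, all on the plus strand. On chromosome 17, Mir99b (mature strand at chr17:17830194-17830215), Mirlet7e and Mir125a (chr17:17830817-17830840) span 692 bp inside the interval of the protein-coding gene Spaca6. On chromosome 9, Mir100 (chr9:41531437-41531458), Mirlet7a-2 and Mir125b-1 (chr9:41581940-41581961) span 50578 bp inside the long non-coding RNA gene Mir100hg. On chromosome 16, Mir99a (chr16:77598940-77598961), Mirlet7c-1 and Mir125b-2 (chr16:77646279-77646300) span 47408 bp, with no other gene of the annotation table over them. Exons and introns were not resolved by the table used. Mir125b-1 and Mir125b-2 give the same mature sequence, so their outputs cannot be told apart on the array.

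Day 0 replicate 1 stood apart from the other arrays. It had 61 detected mouse miRNAs against 150 to 218 elsewhere, and the spread of its negative control spots (scaled median absolute deviation of the intensity) was 30.2 against 2.54 to 3.88. Its lowest detected signal was 7.65 on the log2 scale against 3.56 to 4.61. The 4 oligodendrocyte markers, miR-219, miR-338-3p, miR-338-5p and miR-138, were detected on 6, 7, 3 and 6 of the arrays, in that order. Their summed signal did not follow the labelled days. On the log2 scale it was 7.54, 11.76 and 8.98 for day 0 replicates 1 to 3, 11.31 and 8.02 for day 1, and 11.35, 9.78 and 11.13 for day 6. The highest value thus belonged to a culture labelled immature. On day 0 replicate 1 miR-338-3p read 7.04, and miR-219 and miR-138 stood at the floor of 4.20. These values lie below the lowest detected signal of that array, so its sum of 7.54 is not a measured level. Whether labels were exchanged between cultures was not tested, and each comparison of days below rests on the labels. The 5 precursor markers summed to between 11.14 and 11.96 on every array. Most of that sum is miR-9, with means of 11.51, 11.13 and 10.91 on days 0, 1 and 6, so it says little about the others. Of the other cell types, microglia and leukocyte markers (5 of 5 tested) summed to 10.28 to 11.39 and astrocyte markers (4 of 4) to 10.84 to 11.44. Neuron markers (6 of 9) summed to 8.84 to 10.66, and fibroblast and mural markers (2 of 4) to 6.11 to 8.27. Of the 7 epithelial markers only miR-204 was tested, at 4.20 to 8.16. The epithelial markers miR-200a, miR-200b, miR-200c, miR-141 and miR-429 were detected on no array, as was miR-145 of the fibroblast and mural list. The endothelial, erythroid and muscle markers were not detected on any array. In RNA from whole cultures, fewer cells of a type and less RNA per cell cannot be told apart. The part that culture makeup plays in the results below was not tested.

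MiR-99b, the family member from the chromosome 17 cluster, was the 1 member of 5 called higher on day 6 than on day 0. Its log2 signal was 5.45, 5.57 and 5.50 on day 0, 6.20 and 6.03 on day 1, then 6.68, 6.60 and 6.36 on day 6. The 3 days did not overlap, and day 1 lay between the others. On day 0 replicate 1 none of its 10 spots was well above background (0 of 10). Its 5.45 there lies below the lowest detected signal of that array, 7.65, so it is not a measured level. The measured day 0 values are those of replicates 2 and 3, and the day 0 mean and SD below include the undetected one.

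The rise from day 0, 5.51 ± 0.06 (SD, n = 3), to day 6, 6.55 ± 0.16 (n = 3), was 1.04 ± 0.19 (SE) on the log2 scale. This is 2.06-fold, with a 95% interval of 1.51 to 2.81 (limma, adjusted p = 0.0309 over 199 miRNAs). In the same comparison 4.02% of the tested miRNAs were called, 8 of 199, all higher on day 6. Day 6 lay above day 0 without overlap for 10.6% of the tested miRNAs, and above all immature arrays for 3.52%. MiR-99b is in both sets. Its second probe gave a log2 change of 1.19, which includes 4.33 on day 0 replicate 1, where 0 of its 10 spots were well above background. That probe read 5.23 and 5.02 on the other day 0 arrays and 6.18, 6.16 and 5.81 on day 6. For the brighter probe the difference was 0.89 among the arrays in slide row 1 and 1.07 in row 2, with 1 to 2 arrays a day in each.

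The call for miR-99b depended on the arrays in the fit. Without day 0 replicate 1 the log2 change was 1.14 (limma, adjusted p = 0.0294), and leaving out any of the other 7 arrays gave changes of 0.98 to 1.14 with adjusted p-values of 0.0656 to 0.23. Without day 0 replicate 2, the array with the highest oligodendrocyte markers, it was 1.08 (limma, adjusted p = 0.0933). The change was above 0 under every setting tried, but the call was lost in 10 of the 14 other settings in which miR-99b was tested.

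From day 0 to day 1 miR-99b differed by 0.61 (95% interval 0.11 to 1.11; limma, adjusted p = 0.372), where 1.51% of miRNAs were called. From day 1 to day 6 the difference was 0.44 (−0.06 to 0.93; limma, adjusted p = 0.646), where the call rate was 0% (0 of 199 by limma, 16 at an unadjusted p under 0.05). Against the immature cultures, taken as the mean of the day 0 and day 1 means, it was 0.74 (0.34 to 1.14; limma, adjusted p = 0.0878), beside a call rate of 2.01%. None of these 3 differences passed the threshold.

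**Figure D1:**
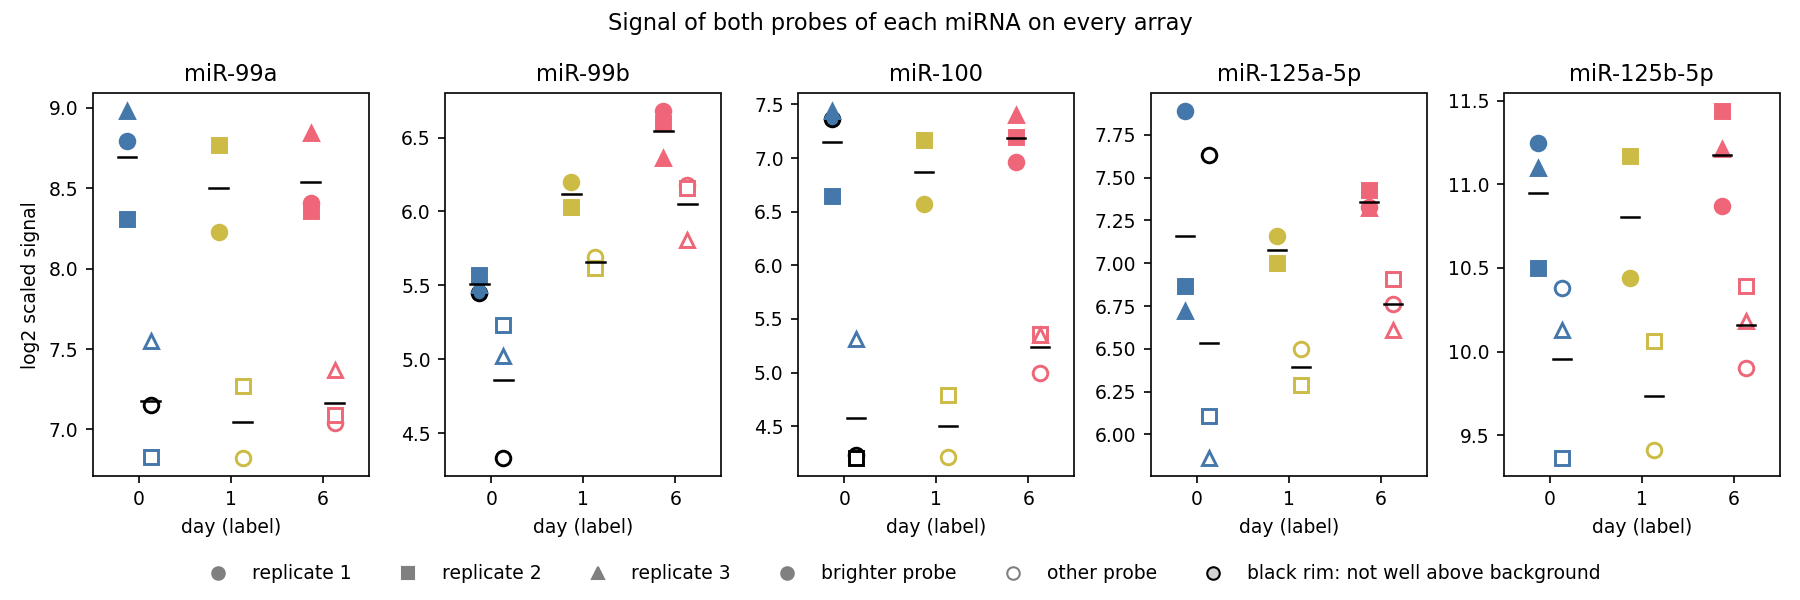
Log2 scaled signal (vertical axis, a range of its own in each panel) of both probes of each miRNA on every array, by labelled day; filled symbols are the brighter probe, open symbols the other, shapes the replicates, short lines the means, and black rims mark values not well above background. MiR-99b steps up from 5.51 on day 0 to 6.55 on day 6 without overlap, while day 0 and day 6 overlap for the brighter probes of the other 4.

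MiR-125a-5p, a miR-125 member from the same cluster as miR-99b, gave a difference whose size depended on day 0 replicate 1. Its log2 signal was 7.89, 6.87 and 6.72 on day 0, 7.16 and 7.0 on day 1, then 7.33, 7.43 and 7.32 on day 6. Day 0 replicate 1 was the highest of all 8 arrays, and the other 7 fell in the order of the days without overlap. On that array 7 of 10 spots were well above background, and their log2 SD was 0.269 against at most 0.158 on the other arrays. The 7.89 lies close to the lowest detected signal of that array, 7.65. The other probe read 7.63 there, with 2 of 10 spots well above background, and was not detected. With all arrays the difference between day 6 and day 0 was 0.20 (95% interval −0.55 to 0.95; limma, adjusted p = 0.852). Without day 0 replicate 1 it was 0.70 ± 0.17 (SE; limma, adjusted p = 0.0863), and so not called either. Within slide row 1, which holds that array, the difference was 0.01, and in row 2 it was 0.51.

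The hairpin of Mir125a is shown because both of its strands are on the array. It lies at chr17:17830812-17830879, and capitals mark the 5p and then the 3p strand.
Mir125a: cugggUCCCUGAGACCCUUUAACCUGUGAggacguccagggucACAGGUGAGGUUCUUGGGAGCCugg
MiR-125a-3p is known from rodent work to slow the maturation of oligodendrocyte precursors. Its log2 signal was at the floor of 4.20 on day 0 replicate 1, against 4.97 and 5.05 on the other day 0 arrays. It was 4.69 and 5.04 on day 1 and 5.73, 4.80 and 5.45 on day 6. The days overlapped, and the difference between day 6 and day 0 was 0.58 (95% interval −0.21 to 1.37; limma, adjusted p = 0.532). With day 0 replicate 1 left out of the day 0 mean, the difference in means was 0.32.

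Let-7e, the let-7 miRNA that lies between them, stood at 7.53, 7.33 and 7.22 on day 0, 7.43 and 7.71 on day 1, then 7.97, 7.97 and 7.70 on day 6. All day 6 arrays were above all day 0 arrays, while day 1 replicate 2 reached the lowest day 6 value. On day 0 replicate 1 neither of its probes was detected. The difference between day 6 and day 0 was 0.52 (0.04 to 0.99; limma, adjusted p = 0.331), and 0.73 without that array (limma, adjusted p = 0.114). Neither passed the threshold.

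The remaining members gave intervals on both sides of 0 in every comparison. MiR-99a, encoded in the chromosome 16 cluster, had log2 signals of 8.79, 8.31 and 8.98 on day 0, 8.23 and 8.77 on day 1, then 8.41, 8.36 and 8.84 on day 6. All 3 days overlapped, and its day 6 against day 0 difference was −0.15 (−0.80 to 0.49; limma, adjusted p = 0.873).

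MiR-100, which differs from miR-99a by U16A, stood at 7.36, 6.65 and 7.44 on day 0, 6.57 and 7.17 on day 1, then 6.96, 7.20 and 7.40 on day 6. The days overlapped, and the value on day 0 replicate 1 was not well above background. The difference between day 6 and day 0 was 0.04 (−0.65 to 0.73; limma, adjusted p = 0.968). Its dimmer probe was not well above background on day 0 replicates 1 and 2, where it stood at 4.23 and at the floor of 4.20, so no fold is given for it. On day 0 replicate 3 it read 5.31, within the 5.0 to 5.36 of day 6.

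MiR-125b-5p, made from 2 loci, had log2 signals of 11.25, 10.50 and 11.10 on day 0, 10.44 and 11.17 on day 1, then 10.87, 11.44 and 11.21 on day 6. The days overlapped, and the difference between day 6 and day 0 was 0.22 (−0.50 to 0.95; limma, adjusted p = 0.803). Its 2 probes gave 0.22 and 0.20. Its interval reached 1.93-fold for day 6 against day 0 and 2.27-fold for day 6 against day 1, and without day 0 replicate 1 the difference from day 0 was 0.50 ± 0.39 (SE).

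Against the immature cultures, miR-99a differed by −0.06, miR-100 by 0.18, miR-125a-5p by 0.24 and miR-125b-5p by 0.30 on the log2 scale (limma, adjusted p from 0.775 to 0.911). From day 0 to day 1 the differences of these 4 lay between −0.28 and −0.08, and from day 1 to day 6 between 0.04 and 0.37, and none was called. The median of the 5 members was 0.20 for day 6 against day 0, beside 0.03 over all 199 tested miRNAs. It was 0.24 beside 0.04 against the immature cultures, 0.31 beside 0.04 against day 1, and −0.15 beside −0.06 for day 1 against day 0. These comparisons share arrays.

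**Figure D2:**
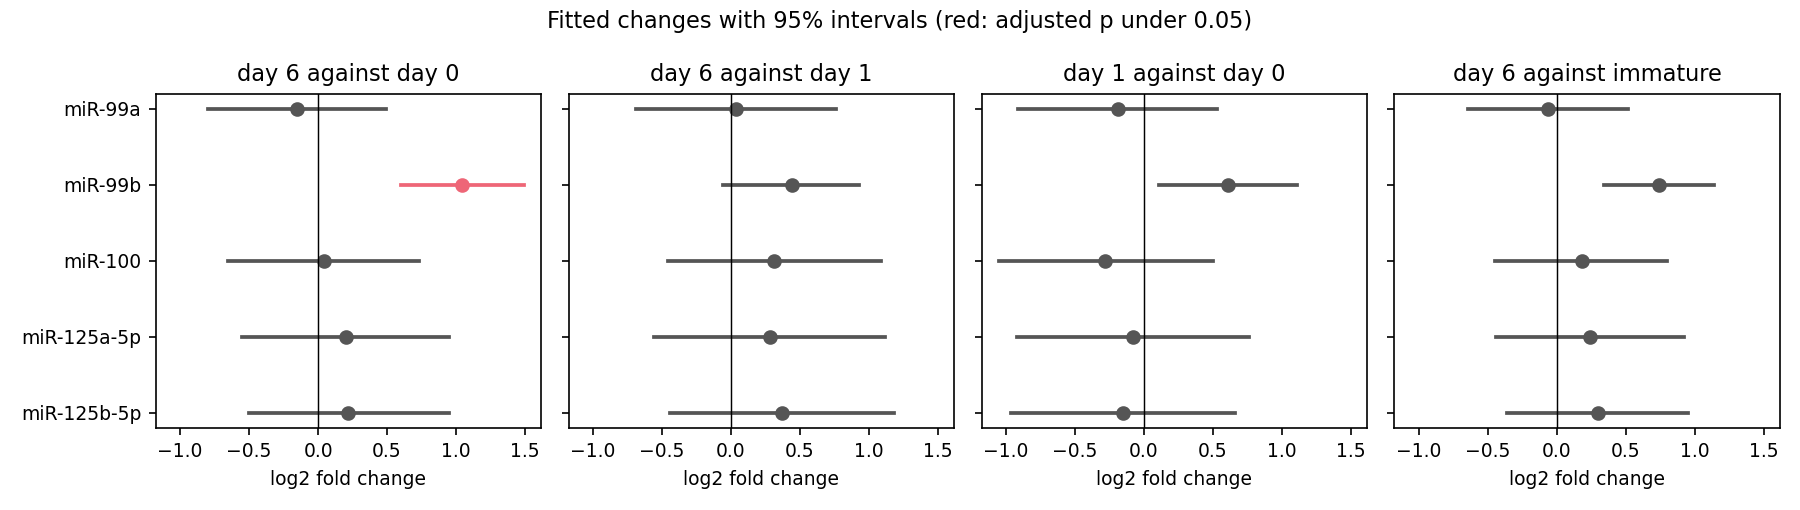
Fitted log2 fold changes (horizontal axis) of the 5 miRNAs in 4 comparisons, with points for the estimates and lines for the 95% intervals of the limma fit. The interval of miR-99b for day 6 against day 0, 0.60 to 1.49, belongs to the call, drawn in red, and the intervals of the other 4 miRNAs include 0 in each panel.

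The let-7 miRNAs that share a cluster with these members were not called either. Let-7a gave 0.15 and let-7c 0.30 for day 6 against day 0 (limma, adjusted p = 0.803 and 0.609), and both are also made elsewhere in the genome. MiR-99b* was detected only on day 0 replicate 1, by 1 of its 4 probes. MiR-125b* and miR-125b-3p were detected on 0 of 8 arrays, as was miR-351, which shares the miR-125 seed. The other strands of miR-99a and miR-100 were not measured here.

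Whether members changed unequally was tested on the difference of their log2 signals within each array, day 6 against the 5 immature arrays pooled, for all 10 pairs. After adjustment 0 of 10 pairs passed (exact two-sided permutation test over 56 splits, whose smallest possible p is 0.0357). Relative to miR-125a-5p, miR-99b was 0.57 higher on day 6 than in the immature cultures, with no overlap of the arrays (exact permutation p = 0.0357, adjusted over 10 pairs 0.298). Relative to miR-99a the difference was −0.88 as miR-99a minus miR-99b (exact permutation p = 0.0714, adjusted 0.298). After adjustment a pair on its own cannot go below 0.357, and at least 8 pairs would have to reach the smallest p to pass, so this test could hardly have made a call. It also sets day 6 against the immature cultures, where miR-99b was not called, and a difference between members from day 0 to day 6 was not tested.

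Across the 8 arrays, miR-99a, miR-100 and miR-125b-5p dipped on the same arrays. Each of the 3 was lowest on day 1 replicate 1 and next lowest on day 0 replicate 2, cultures of different labelled days. Over the 199 tested miRNAs these arrays also deviated together from the means of their days (r = 0.71). Whether the dip is particular to these members was not tested. MiR-99a and miR-100 correlated at Pearson r = 0.875 (exact permutation p = 0.00308, adjusted over 10 pairs 0.0308) and Spearman rho = 0.929 (exact permutation, adjusted p = 0.0223). Without the 2 arrays farthest from the median of miR-99a, r was 0.793. MiR-100 and miR-125b-5p, both from the chromosome 9 cluster, correlated at r = 0.885 (exact permutation, adjusted p = 0.0347) but at rho = 0.667 (exact permutation, adjusted p = 0.415). Without the 2 farthest arrays r was 0.422, so that in these scaled values the relation rests on them. Scaling decided which pair held. Without scaling, miR-100 and miR-125b-5p kept r = 0.896 (exact permutation, adjusted p = 0.0246), rho = 0.905 (adjusted p = 0.0456) and 0.887 without the 2 farthest arrays. MiR-99a and miR-100 then had r = 0.914 and rho = 0.619 (exact permutation, adjusted p = 0.103 and 0.383), and r was 0.267 without the 2 farthest arrays. With the mean of both probes neither pair passed (r = 0.757 for miR-99a and miR-100, r = 0.806 for miR-100 and miR-125b-5p, exact permutation, adjusted p = 0.177 for both). MiR-99a and miR-125b-5p gave r = 0.594 and rho = 0.476 (exact permutation, adjusted p = 0.463 and 0.607).

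The oligodendrocyte markers were high on 4 arrays, at 11.76 on day 0 replicate 2, 11.31 on day 1 replicate 1, and 11.35 and 11.13 on day 6 replicates 1 and 3. The 3 members were low on day 0 replicate 2 and day 1 replicate 1. On day 6 replicate 1 they read 8.41 for miR-99a, 6.96 for miR-100 and 10.87 for miR-125b-5p, each below its mean over the 8 arrays. On day 6 replicate 3 they read 8.84 for miR-99a, 7.40 for miR-100 and 11.21 for miR-125b-5p, each above that mean. Over all 8 arrays the marker sum correlated with miR-99a at r = −0.640, with miR-100 at −0.641 and with miR-125b-5p at −0.647, and with rho of −0.595, −0.619 and −0.667. None passed (exact permutation p = 0.0929 to 0.0957 for r, adjusted over 5 members 0.16). For miR-99b r was 0.443 and for miR-125a-5p −0.282. Without day 0 replicate 1, whose marker sum was not a measured level, r was −0.663 for miR-99a, −0.58 for miR-100 and −0.587 for miR-125b-5p. It was then 0.113 for miR-99b and 0.0958 for miR-125a-5p, and none passed (exact permutation, adjusted p = 0.295 to 0.822). These relations were examined after the values were seen, and the part of the marker level in the shared variation was not tested. Each slide row holds 4 arrays, too few for a correlation within it.

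**Figure D3:**
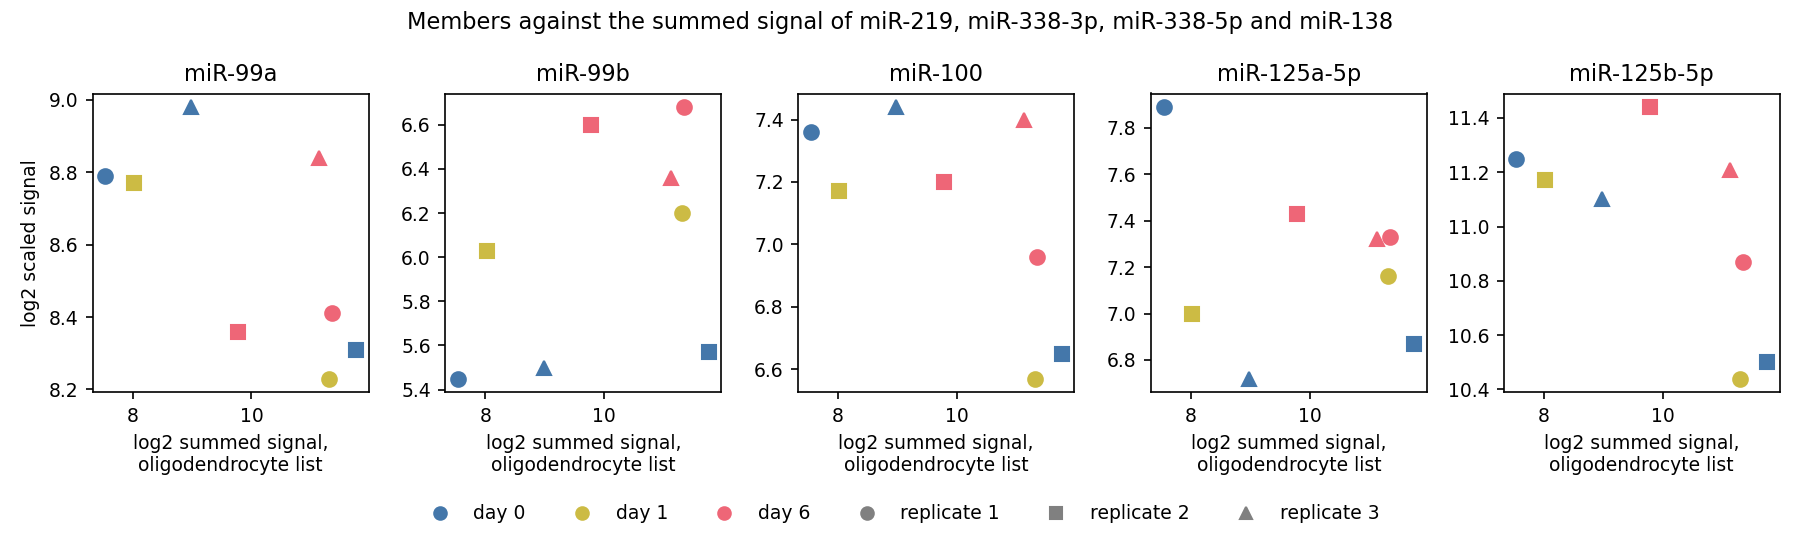
Log2 scaled signal of each miRNA (vertical axis, a range of its own in each panel) against the log2 summed signal of the 4 oligodendrocyte markers (horizontal axis) on the 8 arrays, with colour for the day and shape for the replicate. MiR-99a, miR-100 and miR-125b-5p lie low on the arrays with markers at 11.31 and 11.76. They lie below their means on day 6 replicate 1, with markers at 11.35, and above them on day 6 replicate 3, with markers at 11.13. MiR-99b orders by day.

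Within the chromosome 17 cluster the correlations passed the adjusted threshold only once day 0 replicate 1 was left out. That comparison was made after the values of the array were seen. Over 8 arrays miR-99b and let-7e had r = 0.847 and rho = 0.762 (exact permutation, adjusted over 9 pairs of cluster mates 0.058 and 0.289), and miR-99b and miR-125a-5p had r = 0.198 and rho = 0.310. Over the other 7 arrays r was 0.932 for miR-99b and let-7e, 0.979 for miR-99b and miR-125a-5p, and 0.920 for let-7e and miR-125a-5p, with rho of 0.893, 1.0 and 0.893 (exact permutation, adjusted p of r 0.0156, 0.00178 and 0.0156). On the array left out, miR-99b and let-7e had not been detected. In the other clusters, miR-100 with miR-125b-5p (r = 0.924, rho = 0.75) and let-7c with miR-125b-5p (r = 0.895, rho = 0.857) also passed over these 7 arrays (exact permutation, adjusted p = 0.0156 and 0.0185). Adjusted over the 9 pairs of cluster mates, none passed over all 8 arrays. MiR-100 with miR-125b-5p (r = 0.885) then had an adjusted p of 0.058 (exact permutation). The same test of that pair passed above, at 0.0347, because it was adjusted there over the pairs of members instead. The arrays span the 3 days, so a shared difference between days adds to these values.

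**Figure D4:**
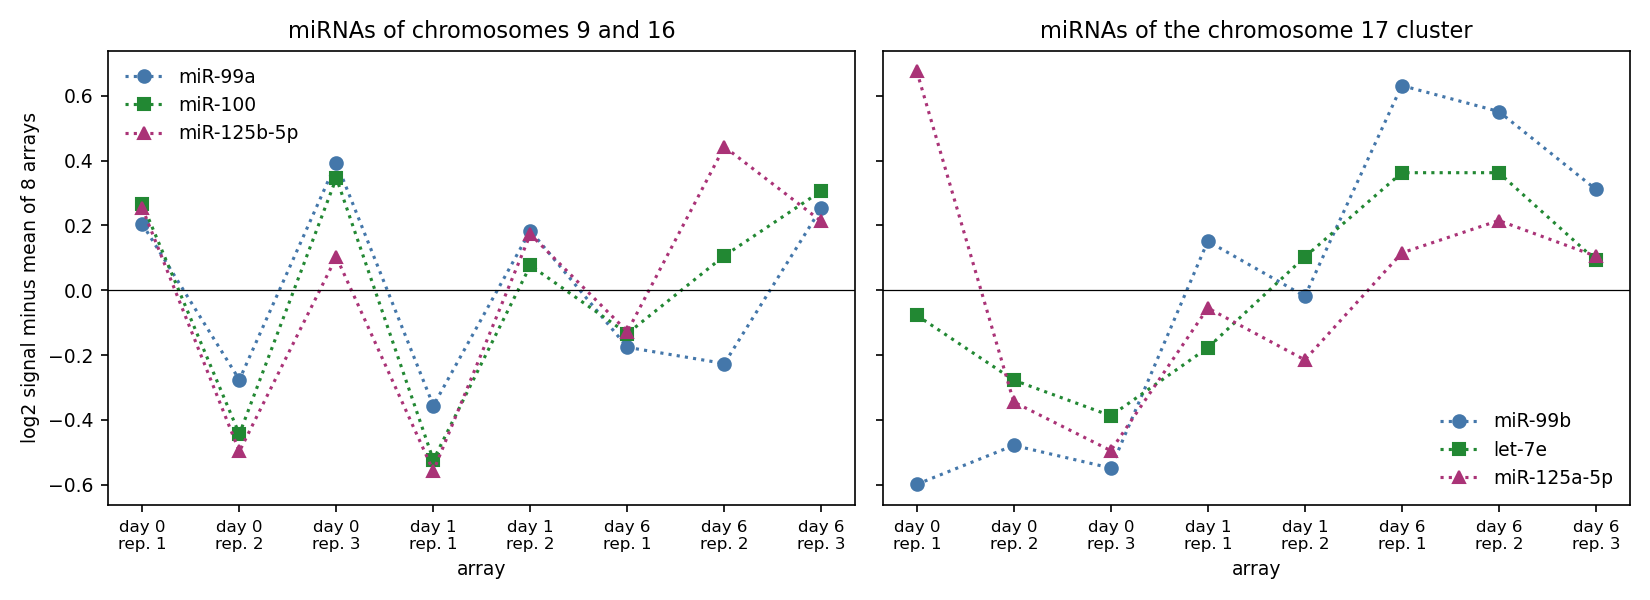
Log2 signal of each miRNA minus its mean over the 8 arrays (vertical axis) on every array (horizontal axis), for miR-99a, miR-100 and miR-125b-5p on the left and the chromosome 17 cluster on the right; dotted lines only link the arrays. On the left the miRNAs dip on day 0 replicate 2 and day 1 replicate 1, and on the right miR-125a-5p parts from its neighbours on day 0 replicate 1, where it reads 7.89.

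Among the 50 other miRNAs detected on all 8 arrays, miR-22 followed miR-125a-5p most closely, with r = 0.934 over 8 arrays and 0.959 without day 0 replicate 1. Next for miR-125a-5p was miR-720, at 0.909 over 8 arrays and 0.782 without that array. MiR-135a was nearest to miR-100 (0.866), to miR-99a (0.782) and to miR-125b-5p (0.767). The next were miR-30c for miR-99a (0.740) and miR-129-3p for miR-100 (0.673) and for miR-125b-5p (0.632). For miR-99b they were miR-1224 (0.732) and miR-27a (0.720). The median r of the 50 with a member lay between −0.224 and −0.0799. These values describe the arrays and carry no test, since the highest of 50 were chosen.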

How the data were processed

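The deposited scanner files give background-subtracted spot intensities on a linear scale, made with Agilent Feature Extraction 9.5 per the file headers and not scaled between arrays. The submitters' value table holds the same intensities (largest difference 0), uncentred, a higher value meaning more signal; its column medians ran from −6.93 to 3.28. All arrays lay on 1 slide with 1 scan date. No spot was saturated.

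Outlier spots were left out and spots averaged per probe. Detection of a probe required a 0.5 share of its spots, or more, flagged as well above background. Arrays were scaled to the 75th percentile of the 91 probes that every array detected, values under 18.4 were raised to that floor (4.20 in log2), and log2 was taken, so these log2 values derive from the deposited intensities. A miRNA has the value of its brightest probe; the 199 mouse miRNAs with detection on 3 or more arrays entered the tests. The small number of arrays limits the precision.

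Means for each day were fitted over all 8 arrays with limma 3.58 (R 4.3, empirical Bayes, two-sided), adjusted by Benjamini-Hochberg over 199 miRNAs and called at 0.05. In these fits the immature level is the mean of the day 0 and day 1 means. Pairs of members were compared by exact permutation in Python 3.11. The step was tested on simulated data. Beside the members, the rule named the let-7 miRNAs of their clusters, their other strands, other miRNAs with their seed, the 2 miRNAs most alike to each, and marker lists of 10 cell types. Members and lists were chosen with earlier results of these data known. Settings for scaling, background, probes, floor, filter, blocks, weights, moderation and each array left out were tried; those for the correlations were added after the data were seen.

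Same-numbered arrays did not deviate together (r from −0.71 to 0.317, above 0.1 in 3 of 7 pairs), so the numbers were not taken as pairs.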

Additional observations from a re-analysis of the deposited data

How the results depend on the processing

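Directions of the 4 members other than miR-99b depended on the processing in some comparisons. From day 1 to day 6, miR-100, miR-125a-5p and miR-125b-5p stayed above 0 under every setting, though by as little as 0.01. None of the 4 was called under any setting, and the causes were not tested. The call of miR-99b between day 6 and day 0 (1 member of 5) went to 0 with scaling over all probes, without scaling, with normexp background correction, with the mean of probes, the second probe or summed signal, with miRNAs detected on all arrays (where miR-99b was not tested), with slide rows blocked, with trended robust moderation and with only the arrays of both days. With the replicate block it was also 0 (miR-99b 1.04, limma adjusted p = 0.146), though the numbers were not taken as pairs. Over all settings miR-99b changed by 0.56 to 1.55 (limma, adjusted p = 0.00611 to 0.655). With an array left out the count was 0 to 1, and 1 only without day 0 replicate 1. Against the immature cultures the count went from 0 to 1 with control-probe scaling, a doubled floor or array weights. Without an array it stayed 0. Pairs of members that passed for correlation went from 2 to 1 without scaling (miR-99a with miR-100 was lost) and 0 with the mean of probes, and were 0 to 3 with an array left out. Pairs of cluster mates went from 0 to 1 without scaling, and were 0 to 5 with an array left out. The test of unequal change gave 0 pairs under each setting run, but with an array left out its smallest p of 0.0571 or 0.0952 could not pass, and in the other settings it could hardly pass, so these counts say nothing about stability.

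Scaling moved the median log2 change of all miRNAs between day 6 and day 0 to −0.44 without scaling and 0.50 with control probes, from 0.03, and against the immature cultures to −0.28 and 0.55, from 0.04. With scaling over all probes the median from day 0 to day 1 was 0.38. Some of the members' signs moved with it. Without scaling, day 6 against immature was −0.16 for miR-100, −0.10 for miR-125a-5p and −0.04 for miR-125b-5p, and day 6 against day 0 was −0.44, −0.28 and −0.25; miR-99a gave −0.17 against day 1. With scaling over all probes miR-99a gave 0.21 against day 0 and −0.24 against day 1, and from day 0 to day 1 the values were 0.44 for miR-99a, 0.36 for miR-100, 0.56 for miR-125a-5p and 0.49 for miR-125b-5p. With control probes miR-99a gave 0.49 against immature and 0.35 against day 0. It gave 0.05 against immature by its second probe and −0.11 against day 1 with the replicate block. With array weights miR-125a-5p gave 0.23 from day 0 to day 1.

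With an array left out, miR-99a ranged from −0.21 to 0.07 against immature, from −0.35 to 0.02 against day 0, from −0.23 to 0.30 against day 1 and from −0.46 to 0.08 between day 0 and day 1. Day 6 against day 0 ranged from −0.21 to 0.27 for miR-100, from −0.02 to 0.70 for miR-125a-5p and from 0.00 to 0.50 for miR-125b-5p. Day 1 against day 0 ranged from −0.58 to 0.02 for miR-100, from −0.30 to 0.34 for miR-125a-5p and from −0.51 to 0.22 for miR-125b-5p.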
